A study of Mus musculus with 10 samples.

Results

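The genes described here are 10 that mark blood vessels or serve their growth through vascular endothelial growth factor (VEGF): *Vegfa*, *Kdr*, *Flt1*, *Tek*, *Tie1*, *Eng*, *Cdh5*, *Pecam1*, *Esam* and *Vwf*. They were chosen by name and not by a ranking of their values, though with earlier results of these data known. All 10 were among the 16875 gene names of the expression table and among the 16757 names that could be tested (a mean over the tumors of at least 0.5 FPKM, fragments scaled to transcript length and to the mapped reads of the library). The messenger RNA of 10 colon tumors of C57Bl6 mice had been sequenced. All tumors were induced with the carcinogen azoxymethane (AOM) followed by 3 cycles of dextran sulfate sodium (DSS), which causes colitis, at 2% in the water, in mice that were 6 to 10 weeks old at the start and preferentially female according to the methods, and were collected 120 days after AOM. By their sex-linked RNA, however, the control tumors came from male mice and the Villin-WlscKO tumors from female mice. The 5 control tumors, titled Wls WT, expressed *Wls*, the carrier that Wnt proteins need to leave a cell. The study gives the conditional *Wls* allele alone (Wls flox/flox) for the control mice of its tumor organoids. The 5 Villin-WlscKO tumors came from mice with this allele and the Cre driver (Villin-Cre ERT2, Wls flox/flox). In these, 5 daily tamoxifen injections of 80 mg/kg, begun 30 days before collection as the study's text gives it for RNA sequencing, remove *Wls*. The Villin promoter drives Cre in intestinal epithelium and not in endothelium, so endothelium was not a target of the deletion. The comparison asks how genes of the vessels and of the VEGF pathway differed between these tumors and controls. Genotype, sex and, going by the study's text on its usual controls, tamoxifen differed together and cannot be told apart.

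Blood vessels are lined by endothelial cells, which are held together by adhesion proteins at their contacts and sense growth signals through receptor tyrosine kinases. VEGF-A, released by epithelial, stromal and inflammatory cells, above all when oxygen is low, binds the receptors encoded by *Kdr* and *Flt1* and makes endothelial cells divide and sprout. The angiopoietins act through the TIE receptors on the same cells and keep vessels quiescent or loosen them. In tumors, new vessels supply oxygen and nutrients, and the intestinal inflammation that DSS causes is itself rich in vessels.

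None of the 10 genes passed the test between the groups. With limma on log2(FPKM + 1) and a Benjamini-Hochberg adjusted p under 0.05 over all tested genes, 0 of 10 passed. Of all tested genes 10.9% passed, 6.12% as higher and 4.75% as lower in Villin-WlscKO tumors. An unadjusted limma p under 0.05 was found for 0 of the 10, against 4308 of all 16757 tested genes. The ranges of the 2 groups overlapped for each of the 10, against 10.1% of all tested genes whose groups did not overlap. The mean was higher in Villin-WlscKO tumors for 6 genes and lower for 4, with a median change of 0.09 on the log2(FPKM + 1) scale beside 0.0073 over all tested genes. Without Villin-WlscKO tumors 2 and 3, *Pecam1*, *Cdh5* and *Eng* turned lower as well. What set the tumors apart was the level shared by most of these genes within a tumor, which varied several-fold inside both groups. In bulk tumor RNA, fewer endothelial cells and less RNA of these genes per cell cannot be told apart.

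**Figure D1:**
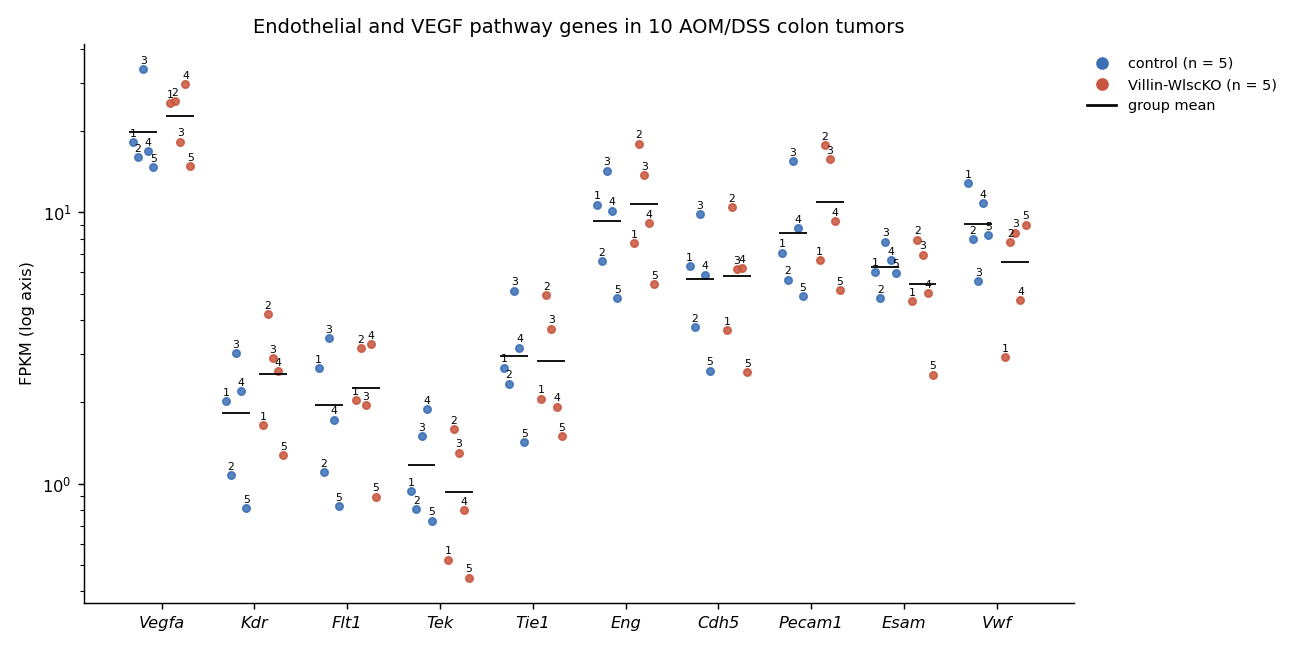
FPKM (log axis) of the 10 genes in each tumor, blue for control and red for Villin-WlscKO, with the tumor number beside each point and a bar at the group mean. The groups overlapped for each gene, and control tumor 3 was the highest control tumor for 8 of the 10 genes.

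Promoter sequence was at hand for 6 of the 10 genes, in 7 entries of RefSeq on GRCm38.p6, each of 300 bases from 250 before to 50 after a transcription start. The proximal promoters of the VEGF receptors *Kdr* and *Flt1*, of *Tie1* and of the upstream *Vegfa* start are shown because the results turn on the ligand and on receptors of vessels. All 4 lie on the minus strand, *Kdr* at chr5:75978406-75978705, *Flt1* at chr5:147725962-147726261, *Tie1* at chr4:118489800-118490099 and *Vegfa* at chr17:46032328-46032627, and they are written 5′ to 3′ in the direction of transcription. Capitals mark GGAAG or its reverse complement CTTCC, the core of the site read by ETS factors, the family to which the endothelial regulators *Erg* and *Fli1* belong.
Kdr: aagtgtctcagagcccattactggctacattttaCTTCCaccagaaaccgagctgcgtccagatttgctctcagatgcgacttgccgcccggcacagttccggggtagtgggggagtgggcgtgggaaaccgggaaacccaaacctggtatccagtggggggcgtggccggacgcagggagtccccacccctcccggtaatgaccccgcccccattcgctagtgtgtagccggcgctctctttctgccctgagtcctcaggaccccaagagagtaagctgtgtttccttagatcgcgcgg
Flt1: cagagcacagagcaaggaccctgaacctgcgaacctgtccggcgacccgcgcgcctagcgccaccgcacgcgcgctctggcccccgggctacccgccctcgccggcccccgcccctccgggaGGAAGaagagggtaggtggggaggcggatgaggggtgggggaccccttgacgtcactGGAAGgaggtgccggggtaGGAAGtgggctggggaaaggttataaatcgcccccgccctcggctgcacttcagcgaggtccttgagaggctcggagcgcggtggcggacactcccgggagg
Tie1: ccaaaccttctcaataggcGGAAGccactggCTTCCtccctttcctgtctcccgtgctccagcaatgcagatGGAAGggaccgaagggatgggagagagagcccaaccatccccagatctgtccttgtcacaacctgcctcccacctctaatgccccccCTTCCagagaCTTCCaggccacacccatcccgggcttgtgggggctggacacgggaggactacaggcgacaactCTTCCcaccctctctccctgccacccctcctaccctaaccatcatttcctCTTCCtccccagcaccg
Vegfa: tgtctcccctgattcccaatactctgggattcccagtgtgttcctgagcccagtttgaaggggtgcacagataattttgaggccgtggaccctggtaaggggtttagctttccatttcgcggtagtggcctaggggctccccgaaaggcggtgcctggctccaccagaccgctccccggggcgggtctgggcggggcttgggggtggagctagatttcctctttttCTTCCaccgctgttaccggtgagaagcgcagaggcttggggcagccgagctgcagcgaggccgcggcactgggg
GGAAG on either strand occurred 7 times in the *Tie1* promoter, 3 times in *Flt1*, 2 times in *Eng*, 1 time in *Kdr* and 0 times in *Tek*, and at the 2 *Vegfa* starts 1 and 2 times. It is a common string, present in 71.4% of the 32851 promoters of the same length, at least 3 times in 16.5% of them and at least 7 times in 0.23%. The hypoxia response core ACGTG, again on either strand, was found only at the downstream *Vegfa* start (chr17:46025114-46025413, 1 match) and in 19.6% of all promoters. That window lies inside the *Vegfa* gene, and sequence more than 250 bases before either start was not searched. Neither the joint FOX and ETS string AACAGGAA (2.65% of all promoters), whose end can overlap GGAAG, nor the SOX string ACAATGG (3.66%) occurred in any of the 7 entries. A match describes the letters of the window, and *Pecam1*, *Cdh5*, *Vwf* and *Esam* had no entry.

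*Vegfa*, the ligand, was the most abundant of the 10 in every tumor. It stood at 18.1, 15.9, 33.6, 16.8 and 14.7 FPKM in control tumors 1 to 5 and at 25.2, 25.7, 18.2, 29.6 and 14.8 FPKM in Villin-WlscKO tumors 1 to 5. Villin-WlscKO tumors 1 to 4 were above 4 of the 5 control tumors, but control tumor 3 was the highest of all, and the lowest values of both groups were nearly equal. The change was 0.21 (standard error 0.24, limma adjusted p = 0.640), and its 95% interval ran from -0.32 to 0.75, or from 0.80-fold to 1.68-fold. Without control tumor 3 it was 0.41 with a limma adjusted p of 0.193. *Vegfa* lies at chr17:46016993-46032369 on the minus strand of GRCm38.

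The 2 VEGF receptors were far less abundant than their ligand. *Kdr* (chr5:75932827-75978458), which encodes VEGFR2, the main signaling receptor, was at 2.01, 1.07, 3.02, 2.18 and 0.810 FPKM in control tumors and at 1.64, 4.22, 2.89, 2.60 and 1.27 FPKM in Villin-WlscKO tumors. Its highest value was in Villin-WlscKO tumor 2 and its lowest in control tumor 5, a 5.21-fold span and the widest of the 10 genes. The change was 0.32 (standard error 0.27, limma adjusted p = 0.515.) *Flt1* (chr5:147561604-147726011), which encodes VEGFR1, a receptor that binds VEGF-A tightly and also occurs as a soluble decoy, was at 2.66, 1.10, 3.44, 1.72 and 0.826 FPKM in control and 2.03, 3.16, 1.94, 3.27 and 0.893 FPKM in Villin-WlscKO tumors. Tumor 5 of each group was lowest, and the change was 0.16 (standard error 0.29, limma adjusted p = 0.783.) Soluble and membrane forms of *Flt1* are not separated in a value per gene.

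The angiopoietin receptors had slightly lower means in Villin-WlscKO tumors, neither past the test. *Tek* (chr4:94739289-94874976), which encodes TIE2, was the least abundant of the 10, at 0.937, 0.803, 1.497, 1.88 and 0.730 FPKM in control and 0.524, 1.59, 1.30, 0.799 and 0.450 FPKM in Villin-WlscKO tumors. Villin-WlscKO tumors 1 and 5 were below every control tumor, while tumors 2 and 3 lay among the highest. The *Tek* change was -0.18 (standard error 0.21, limma adjusted p = 0.654), and because the values are close to the pseudocount of 1 this scale understates any change. *Tie1* (chr4:118471191-118490061), the orphan partner of TIE2, was at 2.67, 2.33, 5.14, 3.17 and 1.42 FPKM in control and 2.05, 4.95, 3.72, 1.92 and 1.49 FPKM in Villin-WlscKO tumors. Control tumor 3 and Villin-WlscKO tumor 2 were nearly level at the top and tumor 5 of each group was at the bottom. The change was -0.056 (standard error 0.29, limma adjusted p = 0.933), and it turned to 0.024 when all tumors were scaled to 1 common FPKM total.

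*Eng* encodes endoglin, a co-receptor for TGF-β and BMP ligands on endothelium. It was at 10.7, 6.60, 14.2, 10.1 and 4.81 FPKM in control and 7.68, 17.9, 13.7, 9.09 and 5.42 FPKM in Villin-WlscKO tumors, again highest in control tumor 3 and Villin-WlscKO tumor 2 and lowest in tumor 5 of each group. The change was 0.17 (standard error 0.33, limma adjusted p = 0.806.) *Eng* (chr2:32646595-32682669, plus strand) overlaps *Fpgs* on the opposite strand, and it is not stated whether strand was used in quantification, so some reads may belong to *Fpgs*.

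Of the junction genes, *Cdh5* (chr8:104101625-104144511), which encodes VE-cadherin, had nearly equal means. It was at 6.32, 3.78, 9.84, 5.88 and 2.61 FPKM in control and 3.68, 10.4, 6.17, 6.22 and 2.57 FPKM in Villin-WlscKO tumors. The change was 0.014 (standard error 0.35, limma adjusted p = 0.988), with a 95% interval from -0.77 to 0.80 that spans 0.59-fold to 1.74-fold, so that the equality of the means carries a wide error. An antisense transcript, *Gm29682*, overlaps *Cdh5*. *Pecam1* (chr11:106654217-106750628), the adhesion molecule CD31 that is also found on platelets and leukocytes, was at 7.08, 5.63, 15.4, 8.75 and 4.89 FPKM in control and 6.64, 17.7, 15.7, 9.28 and 5.17 FPKM in Villin-WlscKO tumors. Its 3 highest tumors were Villin-WlscKO 2 and 3 and control 3, and the change was 0.32 (standard error 0.36, limma adjusted p = 0.638.) Without Villin-WlscKO tumors 2 and 3 the *Pecam1* change was -0.15. *Esam* (chr9:37528078-37538319), an adhesion molecule of endothelial tight junctions and platelets, was at 6.04, 4.82, 7.79, 6.66 and 5.98 FPKM in control and 4.71, 7.93, 6.98, 5.03 and 2.51 FPKM in Villin-WlscKO tumors. Villin-WlscKO tumor 5 was the lowest of all, and the change was -0.23 (standard error 0.23, limma adjusted p = 0.584.)

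*Vwf* (chr6:125546774-125686679), which encodes the clotting factor that endothelial cells and platelets store, had the lowest change of the 10. Control tumors 1 to 5 were at 12.8, 7.96, 5.56, 10.8 and 8.21 FPKM and Villin-WlscKO tumors 1 to 5 at 2.92, 7.77, 8.40, 4.73 and 8.99 FPKM. The order of the tumors was unlike that of the other genes, since control tumor 3 was the lowest control tumor and Villin-WlscKO tumor 5 the highest Villin-WlscKO tumor. Its change was -0.45 (standard error 0.28, limma adjusted p = 0.358) and a 95% interval from -1.08 to 0.18. Exact two-sided permutation tests over all arrangements of the tumors gave p between 0.190 for *Vwf* and 0.905 for *Cdh5*, where the smallest p this design allows is 0.00794.

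FPKM is scaled to transcript length, so levels can be set side by side across genes. Over the 10 tumors *Vegfa* had a mean of 21.3 FPKM, followed by *Eng* at 10.03 and *Pecam1* at 9.62, *Vwf* at 7.81, *Esam* at 5.84 and *Cdh5* at 5.75, *Tie1* at 2.89, *Kdr* at 2.17, *Flt1* at 2.103 and *Tek* at 1.05 FPKM. *Vegfa* was above *Eng*, the gene next to it, in 10 of 10 tumors, and *Cdh5* above *Tie1* in 10 of 10. The neighbors *Eng* and *Pecam1*, *Pecam1* and *Vwf*, *Vwf* and *Esam*, *Esam* and *Cdh5*, and *Kdr* and *Flt1* did not differ beyond the spread of their difference within tumors. *Vwf* ranked above *Pecam1* in control tumors (9.07 against 8.35 FPKM) and below it in Villin-WlscKO tumors (6.56 against 10.9 FPKM), each time within that spread.

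The spread inside the groups was the main feature of these genes. The lowest and the highest of the 10 tumors were 2.29-fold apart for *Vegfa* and 5.21-fold apart for *Kdr*, with the other genes in between. The within-group standard deviation on the log2(FPKM + 1) scale lay between 0.34 for *Tek* and 0.64 for *Pecam1*, compared with a median of 0.23 over the 9359 tested genes whose mean FPKM fell in the range of the 10. Control tumor 3 held the highest control value for 8 of the 10 genes and Villin-WlscKO tumor 2 the highest Villin-WlscKO value for 7, whereas they did so for 25.8% and 19.5% of all tested genes. At the other end, tumor 5 was the lowest control tumor for 8 of the 10 and the lowest Villin-WlscKO tumor for 9 of the 10, against 17.1% and 21.05% of all tested genes.

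**Figure D2:**
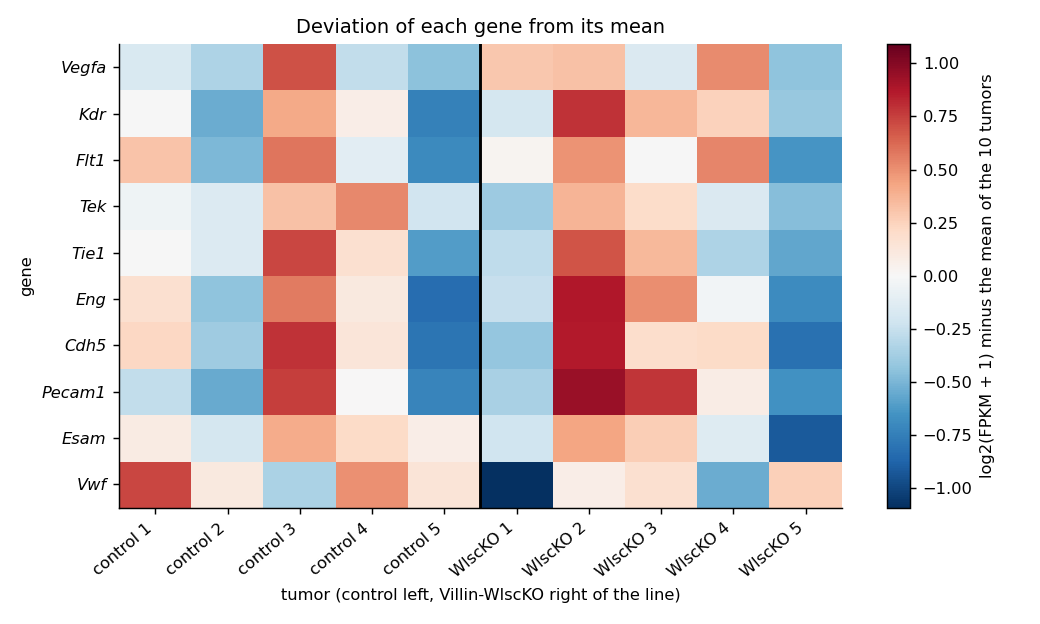
Heat map of log2(FPKM + 1) minus the mean of the 10 tumors, genes in rows and tumors in columns, control left and Villin-WlscKO right of the line (red above, blue below the mean). Columns control 3 and Villin-WlscKO 2 are red for 9 or more of the genes and columns control 5 and Villin-WlscKO 5 mostly blue, and *Vwf* does not follow.

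After the group means had been removed, 8 genes (*Pecam1*, *Cdh5*, *Kdr*, *Flt1*, *Tek*, *Tie1*, *Eng* and *Esam*) moved together. Over their 28 pairs and the 10 tumors, Pearson's r ran from 0.57 to 0.99 with a median of 0.87 (median Spearman's rho 0.88), and 23 pairs were over 0.8. *Cdh5* and *Kdr*, the junction cadherin and the VEGF receptor, were the closest at 0.99. Without Villin-WlscKO tumors 5 and 2, the 2 tumors farthest from the median, the median was 0.82 and the lowest pair 0.37. *Vwf* did not join them, with r between -0.23 and 0.24 to the 8. *Vegfa* lay in between, with a median r of 0.59 to the other 9, from -0.63 for *Vwf* to 0.87 for *Flt1*. These are descriptions over tumors that share depth and scaling within a library.

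Levels were also compared within tumors for 11 pairs of genes, as differences of log2(FPKM + 1). For genes near the added 1, such as *Kdr*, *Flt1*, *Tek* and *Tie1*, this difference also moves with the level of the whole tumor, so the plain ratio of FPKM, chosen after the data had been seen, is given too. *Kdr* minus *Cdh5* was -1.20 ± 0.16 (SD, n = 5) in control and -0.90 ± 0.18 (SD, n = 5) in Villin-WlscKO tumors, a difference of 0.31 with an exact permutation p of 0.0397 that did not hold after adjustment over the 11 pairs (0.306). Villin-WlscKO tumors 1, 3 and 5 were above every control tumor in this measure and tumors 2 and 4 lay among them. Without control tumor 1, 2 or 3 or Villin-WlscKO tumor 1, 3 or 5 the exact permutation p was 0.0556 to 0.0714, with a difference of 0.24 without the last. As a plain ratio, *Kdr* stood at 0.284 to 0.372 of the FPKM of *Cdh5* in control tumors and at 0.405 to 0.495 in Villin-WlscKO tumors, so that the groups did not overlap. The log2 ratio differed by 0.49 with an exact permutation p of 0.00794, the smallest that 5 against 5 tumors can give, and with a pseudocount of 0.1 the difference was 0.46 with the same p. After adjustment over the 11 ratios the value was 0.0873. A single pair at the smallest exact p cannot get below this with 11 pairs, so the adjustment could not decide on this pair. *Pecam1* minus *Cdh5* was 0.49 ± 0.21 in control and 0.79 ± 0.26 in Villin-WlscKO tumors (n = 5 each, SD), with an exact permutation p of 0.0556 and an adjusted value of 0.306 (exact permutation p = 0.0397 without control tumor 5 and 0.0238 without Villin-WlscKO tumor 4). *Angpt2* minus *Tek*, the ligand and the receptor of the angiopoietin pathway, was 2.37 ± 0.53 in control and 1.73 ± 0.56 in Villin-WlscKO tumors (n = 5 each, SD), with an exact permutation p of 0.103. Without Villin-WlscKO tumor 1 this difference was -0.79 with an exact permutation p of 0.0317. *Eng* minus *Cdh5* differed by 0.15 (exact permutation p = 0.151), and without Villin-WlscKO tumor 4, the lowest in this measure, by 0.23 (exact permutation p = 0.00794, over fewer arrangements). The other 7 pairs, among them *Flt1* minus *Cdh5*, *Tek* minus *Cdh5* and *Vwf* minus *Cdh5*, had exact permutation p of 0.365 or more. As plain ratios, the 10 pairs other than *Kdr* and *Cdh5* had exact permutation p of 0.0873 or more.

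**Figure D3:**
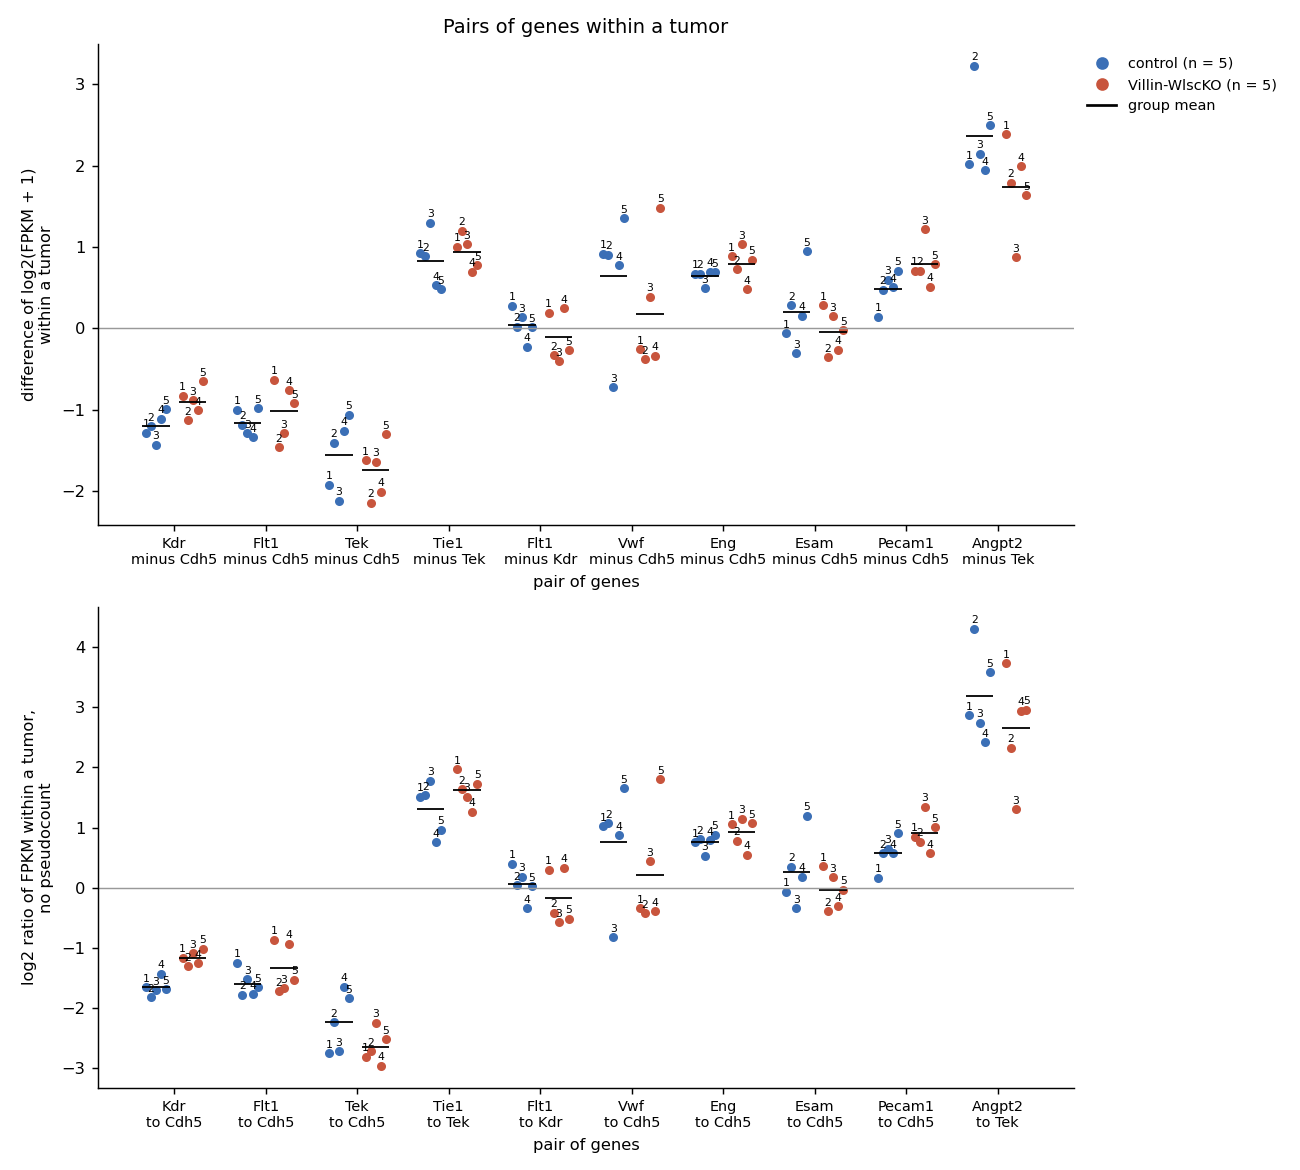
Pairs of genes of the same tumor, as differences of log2(FPKM + 1) above and as log2 ratios of FPKM without a pseudocount below, for 10 of the 11 pairs (*Vegfa* and *Epcam* are left out), with tumor numbers and group means as lines. *Kdr* minus *Cdh5* averaged -1.20 in control and -0.90 in Villin-WlscKO tumors above, and the groups of this pair do not overlap below. No pair was under 0.05 after adjustment over 11 on either scale, which a single pair cannot reach with 5 against 5 tumors.

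The rest of the VEGF and angiopoietin pathways gave 0 calls. Of 7 tested VEGF family members and co-receptors, 0 passed, against 10.9% of all tested genes, with a median change of -0.13. A list this short can give 0 calls at that share. *Vegfb*, a ligand of *Flt1*, was at 10.2 ± 1.79 FPKM in control and 9.49 ± 1.28 FPKM in Villin-WlscKO tumors (n = 5 each, SD; -0.083, limma adjusted p = 0.762), and *Nrp2*, a co-receptor used by lymphatic and venous endothelium, at 5.64 ± 0.96 and 4.93 ± 0.55 FPKM (n = 5 each, SD; -0.15, limma adjusted p = 0.465). *Pgf*, the placental growth factor that binds *Flt1* and is named here after its values were seen, came closest, at 4.95 ± 1.31 in control and 2.90 ± 0.59 FPKM in Villin-WlscKO tumors (n = 5 each, SD; -0.60, limma adjusted p = 0.0576, and 0.0178 without control tumor 1). Among 4 tested angiopoietin pathway genes 0 passed, against the same 10.9% of all tested genes. *Angpt2*, the ligand that loosens vessels and is released by activated endothelium, was at 6.83, 15.9, 10.04, 10.1 and 8.77 FPKM in control and 6.98, 7.95, 3.21, 6.15 and 3.50 FPKM in Villin-WlscKO tumors (-0.81, limma adjusted p = 0.0746). Of the 5 Villin-WlscKO tumors, 3 were below every control tumor. *Tnip2*, a cytoplasmic protein reported to bind TIE2, was at 12.3 ± 2.23 and 13.0 ± 2.12 FPKM (n = 5 each, SD; limma adjusted p = 0.777).

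A wider list of 27 tested vascular identity genes was split about evenly between the groups, with 14 higher and 13 lower, a median change of 0.024 and 1 call (3.70%, against 10.9% of all tested genes). The defining markers *Emcn*, *Plvap* and *Cldn5* were above 1 FPKM in every tumor, so endothelial markers were present in all of them. The single call was *Sox18*, a transcription factor of the SoxF group active in endothelium, which fell from 43.9, 24.6, 23.1, 49.9 and 27.8 FPKM in control to 7.14, 12.6, 9.05, 8.36 and 15.7 FPKM in Villin-WlscKO tumors (-1.57, standard error 0.26, limma adjusted p = 0.00398). The 2 ranges were separate. Between tumors *Sox18* had an r of 0.090 to the mean of the 9 endothelial genes after the group means had been removed (n = 10).

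Among 14 tested genes of arteries, veins and sprouting tip cells, 1 rose and 2 fell, 21.4% in all, against 10.9% of all tested genes (6.12% higher and 4.75% lower). Over the 23 alternatives 0 to 2 were higher and 1 to 3 lower. *Sox17*, a SoxF factor of arterial endothelium that is also known from intestinal tumor epithelium, fell from 125, 62.7, 44.1, 66.0 and 31.2 FPKM to 5.63, 6.97, 4.37, 7.80 and 3.35 FPKM (-3.23, standard error 0.33, limma adjusted p = 0.000234). The ranges were far apart, and its r to the mean of the 9 endothelial genes was 0.38. *Notch4*, an endothelial Notch receptor, rose from 1.46, 1.38, 1.52, 1.40 and 1.87 FPKM to 3.89, 3.27, 3.98, 3.70 and 3.04 FPKM (0.86, standard error 0.10, limma adjusted p = 0.000551), also without overlap and with an r of -0.099. *Ephb4*, a receptor of venous endothelium that epithelium uses too, fell from 54.7 ± 5.93 to 43.4 ± 3.40 FPKM (n = 5 each, SD; -0.32, limma adjusted p = 0.0348). This call was lost in 11 of 23 alternatives, among them a common FPKM total (limma adjusted p = 0.249) and leaving out control tumor 2, 3 or 4 or Villin-WlscKO tumor 1, 3, 4 or 5 (0.0535 to 0.0856). *Ackr1*, the chemokine receptor of venules, named after its values were seen, was at 2.23 ± 1.29 and 6.22 ± 3.07 FPKM (n = 5 each, SD; 1.14, limma adjusted p = 0.0512, and 0.0277 without control tumor 3 and 0.0469 without Villin-WlscKO tumor 5), and it shares its values with *Cadm3* in the table, so the 2 cannot be told apart. Which cells carried *Sox17*, *Sox18*, *Notch4* and *Ephb4* RNA was not tested.

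Of 4 tested leukocyte adhesion genes of endothelium, 1 rose, where 6.12% of all tested genes did, and over the alternatives 0 to 2 did. By sign alone all 4 were higher, with a median change of 0.65, against 8617 of all 16757 tested genes. *Icam1*, which inflammatory signals raise on endothelium, epithelium and leukocytes, was at 13.8, 13.2, 22.6, 19.8 and 14.8 FPKM in control and 28.4, 38.2, 33.3, 28.5 and 18.6 FPKM in Villin-WlscKO tumors (0.76, standard error 0.20, limma adjusted p = 0.0351). The 4 highest values were in Villin-WlscKO tumors, and Villin-WlscKO tumor 5 lay within the control range. The call was lost in 9 of 23 alternatives, when control tumor 1, 2 or 5 or Villin-WlscKO tumor 1, 2, 3 or 4 was left out (limma adjusted p of 0.0631 to 0.0865), without Villin-WlscKO tumors 2 and 3 together (0.165) and with a squamous covariate (0.0599). Between tumors *Icam1* moved with the endothelial genes, with an r of 0.84 to the mean of the 9 (n = 10).

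Of the 6 lymphatic genes 0 passed, against 10.9% of all tested genes, a share at which so short a list can give 0. *Prox1*, the master regulator of lymphatic endothelium, which shares its values with *Prox1os* and is also found in intestinal tumor cells, was at 68.9 ± 13.0 FPKM in control and 49.5 ± 9.83 FPKM in Villin-WlscKO tumors (n = 5 each, SD; limma adjusted p = 0.104). *Ccl21a*, a lymphatic chemokine, was at 9.52, 14.3, 17.7, 14.1 and 17.6 FPKM in control and at 12.7, 39.4, 90.9, 12.4 and 51.3 FPKM in Villin-WlscKO tumors (limma adjusted p = 0.207), with its 3 highest values in Villin-WlscKO tumors 3, 5 and 2. Of 8 pericyte genes 0 passed either, against the same share. *Mcam* was at 10.9 ± 5.07 and 11.0 ± 4.60 FPKM and *Rgs5* at 7.45 ± 2.76 and 9.26 ± 5.50 FPKM (n = 5 each, SD), with limma adjusted p of 0.970 and 0.849. *Pdgfb*, the endothelial signal that recruits pericytes and is named after its values were seen, had separate ranges, at 8.74 ± 2.53 against 4.51 ± 1.89 FPKM (n = 5 each, SD), but did not pass (-0.86, limma adjusted p = 0.0604, and 0.0381 without Villin-WlscKO tumor 4). Ranges were also separate for 10.1% of all tested genes.

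**Figure D4:**
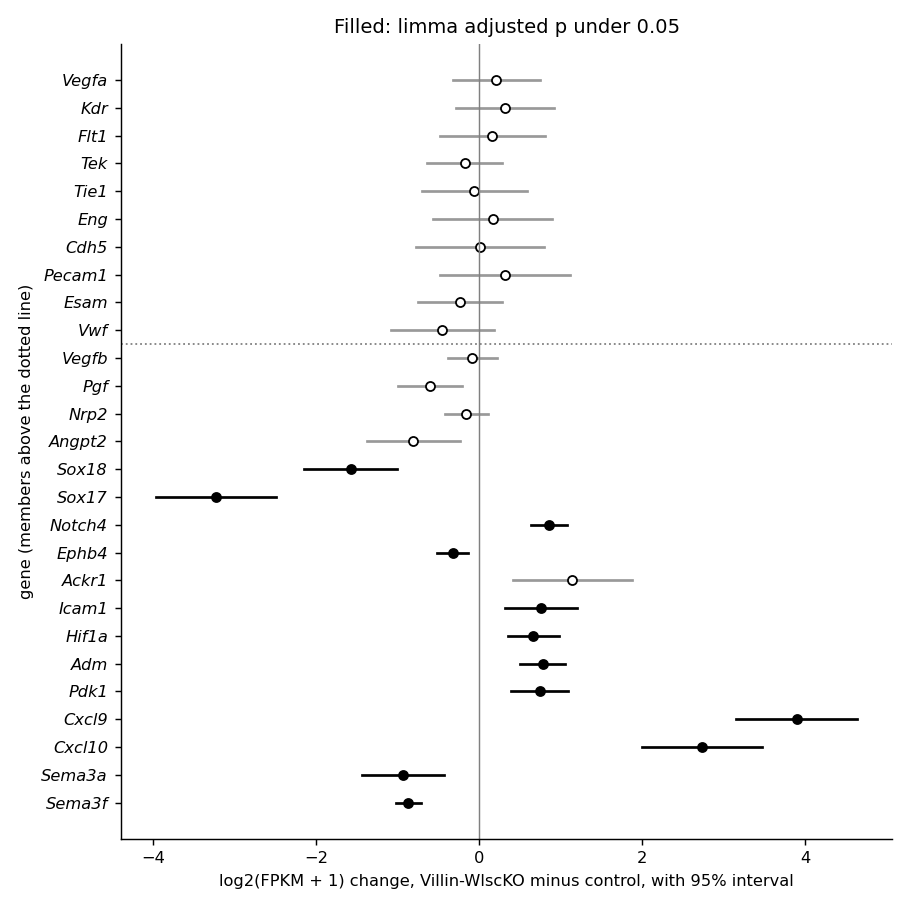
Change of each gene on the log2(FPKM + 1) scale, Villin-WlscKO minus control, with its 95% interval (limma, 5 tumors in each group). The 10 genes above the dotted line all have intervals across 0, from *Pecam1* at 0.32 to *Vwf* at -0.45, and filled points mark an adjusted p under 0.05.

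*Vegfa* is a textbook target of hypoxia-inducible factor (HIF), and some other genes of that response rose. Of 15 tested hypoxia and HIF genes, 7 rose and 0 fell (46.7% called, against 6.12% higher among all tested genes), with a median change of 0.38. The list was chosen with earlier results of these data known. By sign alone 10 were higher and 5 lower. Among the 5, named after their values were seen, were *Bnip3* (-0.20), *Ndrg1* (-0.23), *Egln1* (-0.11) and *Vhl* (-0.045), none past the test. *Car9*, also named after its values were seen, was higher by 0.56 without passing (limma adjusted p = 0.225). *Adm*, which encodes the vasodilator adrenomedullin, rose from 4.23, 4.07, 4.36, 3.82 and 2.93 FPKM to 7.09, 7.86, 7.71, 8.62 and 5.68 FPKM (0.78, standard error 0.12, limma adjusted p = 0.00334). *Pdk1*, a kinase that diverts pyruvate from mitochondria, rose from 21.2 ± 3.92 to 36.4 ± 7.36 FPKM (n = 5 each, SD; 0.75, limma adjusted p = 0.0142), and *Hif1a*, the oxygen-regulated subunit itself, from 63.4 ± 13.2 to 99.9 ± 12.2 FPKM (n = 5 each, SD; 0.67, limma adjusted p = 0.0148). The groups were separate for these 3 and overlapped for *Vegfa*, whose change in the same fit was 0.21 with an interval up to 0.75. The difference between *Vegfa* and these genes was not tested. The other 4 that rose, named after their values were seen, were *Egln3*, *Slc2a1*, *Pgk1* and *Ldha*, with changes of 0.52, 0.55, 0.47 and 0.38. *Slc2a1*, *Ldha* and *Egln3* lost their calls in 14, 11 and 7 of 23 alternatives. Thus 4 genes of the list still rose without control tumor 4 or 5 or Villin-WlscKO tumor 1, 3 or 5. Without Villin-WlscKO tumors 2 and 3, 6 were called higher. *Slc2a1* and *Ldha* were not among these 6, which included a gene not called with all tumors. Without control tumor 4 there was also 1 lower gene, *Ankrd37*, named after its values were seen (-0.41, limma adjusted p = 0.0130), which had a change of -0.28 with all tumors (limma adjusted p = 0.221). *Pgk1* is X-linked. Within the groups *Vegfa* had an r of 0.16 with the mean of the list (-0.64 without control tumor 3 and Villin-WlscKO tumor 4, n = 10 and 8).

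**Figure D5:**
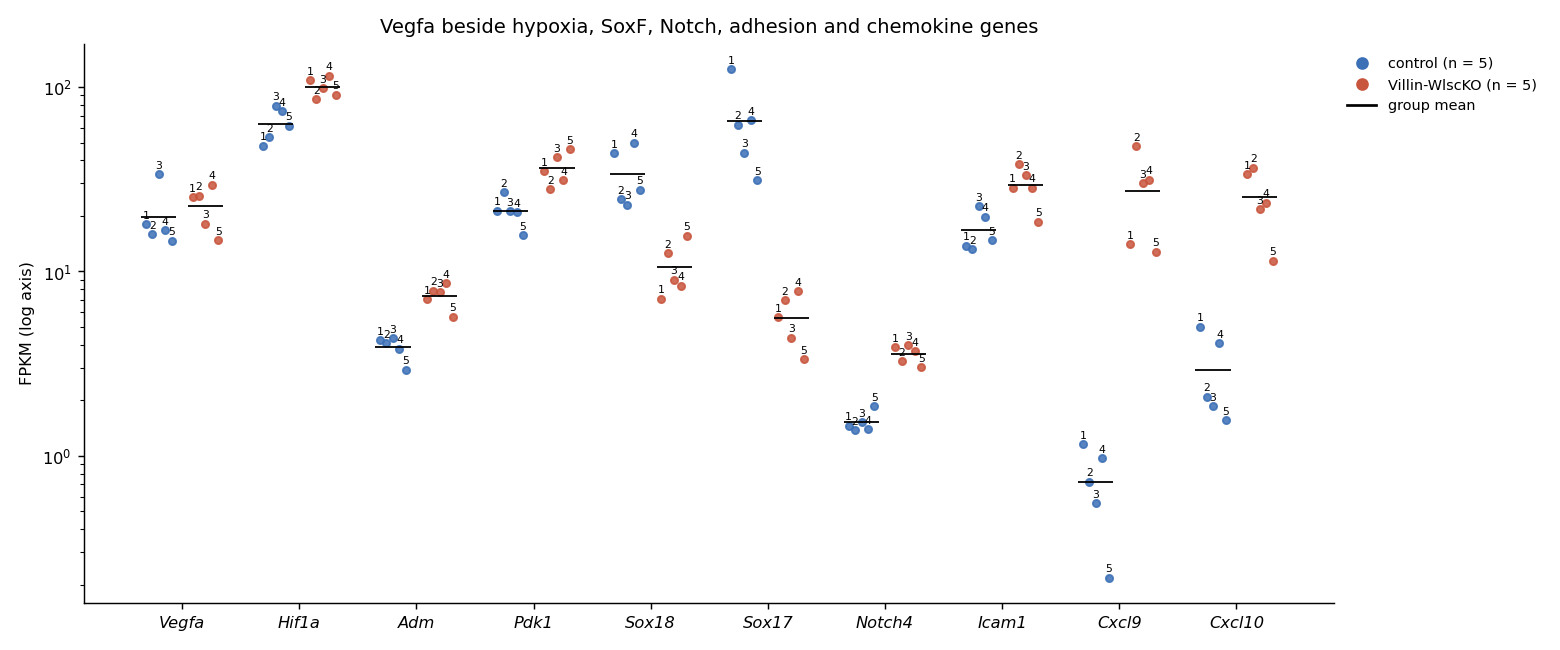
FPKM (log axis) of *Vegfa* beside hypoxia, SoxF, Notch, adhesion and chemokine genes in each tumor, blue for control and red for Villin-WlscKO, with tumor numbers and group means. *Vegfa* overlapped between the groups, whereas *Hif1a*, *Adm*, *Pdk1*, *Sox18*, *Sox17*, *Notch4*, *Cxcl9* and *Cxcl10* did not.

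Genes known to restrain vessel growth went both ways, with 2 of 10 tested higher and 2 lower, against 6.12% and 4.75% of all tested genes, and 2 to 3 higher and 1 to 2 lower over the alternatives. *Cxcl9* and *Cxcl10*, interferon-induced chemokines that attract T cells and inhibit angiogenesis, rose from 0.726 ± 0.365 to 27.2 ± 14.3 FPKM and from 2.93 ± 1.54 to 25.4 ± 10.02 FPKM (n = 5 each, SD; 3.90 and 2.73, limma adjusted p = 6.67e-05 and 0.000671). The semaphorin *Sema3a* fell from 3.49 ± 1.30 to 1.32 ± 0.59 FPKM (n = 5 each, SD; -0.94, limma adjusted p = 0.0252), and that call was lost without control tumor 2 or 5 or Villin-WlscKO tumor 1, 3 or 4 (0.0546 to 0.0619). *Sema3f*, named after its values were seen, fell from 89.4 ± 5.53 to 48.6 ± 3.81 FPKM (n = 5 each, SD; -0.87, limma adjusted p = 4.94e-05).

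The genes whose pattern was most like the mean of the 9 endothelial genes, after the group means had been removed and among 11787 tested genes with a mean of at least 5 FPKM, were *Pdgfrb* (r = 0.98), *Igfbp7* (0.97), *Mcam* (0.97), *Cd34* (0.97) and *Fstl1* (0.97), where the median gene had an r of -0.027. For *Vegfa* they were *Actn1* (0.98), *Fam204a* (0.98) and *Ptgs2* (0.96). *Ptgs2*, the inducible cyclooxygenase of inflammation, spanned 4.89 to 43.5 FPKM in control and 2.01 to 14.1 FPKM in Villin-WlscKO tumors. All 8 are likenesses over 10 tumors.

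Other cell types moved with the endothelial genes between tumors. Within the groups the mean of the 9 had an r of 0.98 with the fibroblast list (6 of 6 genes tested), 0.96 with the pericyte list, 0.90 with the platelet list (5 genes) and 0.81 with the leukocyte list (7 genes), and -0.34 with the epithelial list (7 genes), each over 10 tumors. Without Villin-WlscKO tumors 5 and 2 these values were 0.97, 0.96, 0.82, 0.69 and -0.0066. In the epithelial list, *Krt19* shares its values with *Krt13* and *Krt17*, so these cannot be told apart. The summed level of the fibroblast list ran from 278 to 1010 FPKM in control and from 378 to 1150 FPKM in Villin-WlscKO tumors, that of platelets from 96.3 to 162 and from 117 to 357 FPKM, that of leukocytes from 31.3 to 58.8 and from 29.4 to 61.3 FPKM, and that of epithelium from 5974 to 8414 and from 7208 to 9219 FPKM. Their genes past the threshold, which 10.9% of all tested genes passed, numbered 0 for fibroblasts, platelets, epithelium, smooth muscle (r = 0.15) and erythrocytes (r = 0.46). Squamous epithelium (7 genes) also had 0, with an r of 0.69, or 0.44 without Villin-WlscKO tumors 5 and 2. For leukocytes there were 2, *Cd3e* and *Cd8a*, both higher, and 0 without Villin-WlscKO tumors 2 and 3. In that setting 6 of the 7 leukocyte genes were tested, since the other fell below the mean of 0.5 FPKM. A lost call there can thus also be a gene that left the test. *Epcam*, the defining epithelial marker, was at 986 ± 46.3 FPKM in control and 1120 ± 181 FPKM in Villin-WlscKO tumors (n = 5 each, SD), and *Vegfa* minus *Epcam* differed by 0.042 between the groups (exact permutation p = 0.873). The part of tissue composition in the level of these genes was not tested.

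Some facts of the whole series touch these results. *Wls* was at 61.3 FPKM or more in control tumors and at 2.03 to 11.7 FPKM in Villin-WlscKO tumors. *Xist* was at 439 to 701 FPKM in Villin-WlscKO tumors and at most at 0.420 FPKM in control tumors, and *Eif2s3y*, a Y-linked gene, was at 0.138 FPKM or less and at 30.4 FPKM or more, so that genotype and the sex of the mice cannot be told apart. The RNA of the control tumors was thus that of males, although the methods name females as preferred. The study's text describes its usual control tumors as coming from mice without tamoxifen, so tamoxifen and genotype cannot be told apart either. Villin-WlscKO tumors 2 and 3, which stood at or near the top for most endothelial genes, also held squamous keratins (*Krt5* at 470 and 669 FPKM, against 0.315 FPKM or less elsewhere). Without these 2 tumors 0 of the 10 genes passed, and the changes of *Pecam1*, *Cdh5* and *Eng* turned to -0.15, -0.33 and -0.24. Those of *Tek*, *Tie1* and *Esam* were then -0.42, -0.42 and -0.54, and *Vwf* stayed lower too. *Kdr*, at 0.042, *Flt1* and *Vegfa* stayed higher. The split of the 10 genes by sign thus depended on these 2 tumors. The replicates are tumors, the number of mice they came from is not stated, and the p-values measure the spread between these tumors.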

How the data were processed

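Stranded mRNA libraries had been made from macrodissected colon tumors of both groups, 5 each. Per the methods and the submitters' processing notes, the authors used FastQC for read quality, TopHat 2.1.1 for mapping (build GRCm38.p5), and Cufflinks 2.2.1 and Cuffdiff at default settings for quantification, and deposited FPKM per gene and tumor. The table gives no counts, so the depth is unknown, FPKM sums between 1207683 and 1533885 hold no depth, and no counting interval was given. Groups were taken from the genotype labels, all 10 columns matched a tumor and 0 were left over. How the 16875 names were chosen, the annotation release and the use of strand are not given in the sources used here.

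The main test was limma 3.58.1 (R 4.3.3) on log2(FPKM + 1) with a variance trend, two-sided, over the 16757 genes averaging 0.5 FPKM or more, without covariates, and Benjamini-Hochberg adjustment over all of them. Of the names, 2419 share all their values with another name, none of the 10 genes among them. Exact permutation tests, summaries and plots used scipy 1.17.1, pandas 2.3.3, numpy 2.4.6 and matplotlib 3.10.9 under Python 3.11.15. The fit was tested on simulated data. Likeness is Pearson's r after each group's mean was removed. Positions are from GENCODE M21 on GRCm38, and promoters from RefSeq on GRCm38.p6.

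Besides the 10 genes, the text names up to 3 genes past the threshold with the largest change from each of 9 lists on vessels and VEGF, or the 2 most abundant where 0 passed, the genes most like the 10, and genes said to be named after their values were seen. The genes and the lists, of which 7 more mark other cell types, were chosen with earlier results of these data known. Alternatives were another pseudocount, scaling, filter, variance model, weights, a replicate block, a squamous score as covariate, tumors left out, shared entries counted once and, added after the data were seen, gene pairs without a pseudocount. The authors' own tables of differential expression were not used here.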

Additional observations from a re-analysis of the deposited data

Results flagged for a closer look

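In 100 groups of 5 tumors, Dixon's ratio of the gap at either end to the whole range was compared with its critical value of 0.71, and 5 were above it, where chance gives about 1 in 20. All 5 concerned control tumors. *Vegfa* had a ratio of 0.750, because control tumor 3 was at 33.6 FPKM and the next at 18.1 FPKM, and *Vegfa* minus *Epcam* had 0.772 for the same tumor. *Eng* minus *Cdh5* had 0.872 and *Vwf* minus *Cdh5* 0.723, both with control tumor 3 as the lowest. *Rgs5*, a pericyte gene, had 0.743, with control tumor 5 at 2.84 FPKM and the next at 7.25 FPKM. Of the 5, 4 fell on control tumor 3, the control tumor highest for 8 of the 10 genes.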

How the results depend on the processing

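Of the 10 genes, 0 passed in limma in each of the alternatives, 0 with the replicate block included, and with a mean FPKM of at least 5 *Kdr*, *Flt1*, *Tek* and *Tie1* were not tested. Replicate numbers did not pair tumors (correlations from -0.087 to 0.16 within numbers), and the replicate block gave 1627 calls over all genes against 1822 and lost *Pdk1* (adjusted p = 0.0644) and *Ephb4* (0.0588), with 4 hypoxia and HIF genes higher. Calls split into 1026 higher and 796 lower as reported, 1373 and 410 with a common FPKM sum, which moved the median of all genes to 0.097, and 893 and 1125 after quantile normalization. Leaving out 1 tumor gave 1229 to 1986 calls, and leaving out Villin-WlscKO tumors 2 and 3 gave 1101, with fewer samples. Signs turned as follows. Without these 2 tumors the changes were -0.15 for *Pecam1*, -0.33 for *Cdh5*, -0.24 for *Eng*, -0.050 for *Tnip2*, -0.33 for *Mcam* and -0.32 for *Rgs5*, and the pair differences 0.013 for *Flt1* minus *Kdr* and -0.11 for *Vegfa* minus *Epcam*. With the squamous covariate they were -0.19 for *Cdh5*, -0.072 for *Eng*, -0.18 for *Mcam* and -0.13 for *Rgs5*. Quantile normalization gave -0.0087 for *Cdh5*, a common sum 0.024 for *Tie1* and 0.010 for *Vegfb*, tumor weights 0.042 for *Tie1*, and the ratio of medians -0.16 for *Eng* and -0.084 for *Mcam*. With each tumor left out, ranges were -0.20 to 0.22 for *Cdh5*, -0.24 to 0.12 for *Tie1*, -0.030 to 0.36 for *Eng*, -0.13 to 0.25 for *Mcam*, -0.093 to 0.46 for *Rgs5* and -0.081 to 0.23 for *Vegfa* minus *Epcam*. The cause was not tested. *Kdr* minus *Cdh5* lost its exact permutation p under 0.05 in 7 alternatives and had 0.00794 as a ratio without pseudocount, a setting chosen after the data were seen, *Flt1* minus *Cdh5* reached 0.0357 without tumors 2 and 3, and *Pecam1* minus *Cdh5* reached 0.0238 without Villin-WlscKO tumor 4 and 0.0397 without control tumor 5, and *Angpt2* minus *Tek* 0.0317 without Villin-WlscKO tumor 1. With no counts, low levels such as *Tek* carry an unknown counting error.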
